A study of Mus musculus with 9 samples.

Results

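The 10 genes described here are markers of blood vessel endothelium: Ramp2, Esam, Flt1, Kdr, Tie1, Tek, Cav1, Cldn5, Pecam1 and Cdh5. They were chosen by name out of 18193 genes measured, with earlier results of these data known. Every probe set annotated to them was taken. These were 14 probe sets listed to 1 of the genes alone, out of 45037 in the table, and another 2 that Ramp2 shares with its neighbour Vps25. Affymetrix arrays measured RNA of the calf muscle gastrocnemius, from CD-1 mice (outbred, young adult) killed 14 days after their operation. In the testosterone group castration was followed at once by a pellet of 2.5 mg testosterone that releases over 60 days. The castration group got a placebo pellet instead, and the sham group a sham operation with a placebo pellet. There were 3 arrays a group, every one hybridised with a pool of RNA from 3 mice, so an SD below is the spread between pools. The testosterone mice were castrated too, so the testosterone group is a replacement group, and no intact mice received testosterone.

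Endothelial cells line every blood vessel, and in skeletal muscle most of them form the capillaries that run along the fibres. Their growth and survival depend on receptor tyrosine kinases for vascular endothelial growth factor (VEGF) and for the angiopoietins, and their barrier depends on adherens and tight junctions between neighbouring cells. Caveolae, small pits of the plasma membrane, are abundant in capillary endothelium, and the peptide adrenomedullin keeps vessels patent and tight. Testosterone acts on muscle fibres, fibroblasts and vessels through the androgen receptor, and the comparisons ask whether loss and replacement of the hormone go with differences in these vascular transcripts.

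Values are log2 expression as deposited, with 1 unit equal to a doubling, and a gene is represented by its probe set with the highest mean. The tissue label was borne out by 12 muscle fibre markers, of which Ckm, creatine kinase, stood between 13.96 and 14.03 on every array. Of 34 further endothelial markers 24 had a mean of at least 4, a level that 7519 of all 18193 genes reached. Of 4 measured lymphatic endothelial markers 0 reached it. Sham 2 and testosterone 2 stood apart: their mean correlations with the other arrays were 0.972 and 0.981, against 0.989 to 0.991 for the other 7. On sham 2 the median of the 7519 genes with a mean of at least 4 lay 0.32 below those genes' means over all arrays, while on the other 8 arrays it lay between −0.0034 and 0.084. On that array the 10 endothelial genes averaged 0.36 below their means. Where leaving out both arrays moves a named difference between groups by over 1.5 times, the value from the other 7 arrays is given too. The muscle was measured whole, so fewer endothelial cells and less RNA per endothelial cell cannot be told apart.

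The VEGF receptors are described first. Kdr encodes VEGF receptor 2, the main signalling receptor for VEGF-A on endothelium. It stood at 5.74, 5.47 and 5.81 on the testosterone arrays, at 5.78, 6.03 and 5.83 on the castration arrays and at 5.91, 5.45 and 6.02 on the sham arrays. The 3 groups overlapped, and the lowest value of each of the testosterone and sham groups was on its second array. Flt1 encodes VEGF receptor 1, which binds VEGF-A tightly and limits its supply to Kdr. Its brightest probe set read 5.77, 6.04 and 5.92 with testosterone, 6.43, 5.90 and 5.65 after castration and 5.65, 5.09 and 5.77 in sham. Castration 1 was the highest array and sham 2 the lowest, and the groups overlapped. Of the other 3 Flt1 probe sets, 1 had a mean of 5.74 and 1 a mean of 4.12, and sham 2 was again the lowest array on both. The remaining probe set had a mean of 3.00, with the arrays spread over 0.51.

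Among the angiopoietin receptors, Tek (Tie2) binds angiopoietin 1, which keeps resting vessels stable. Tek read 4.92, 4.53 and 4.71 with testosterone, 5.07, 4.75 and 4.67 after castration and 4.38, 4.35 and 4.87 in sham. All 3 groups overlapped. Tie1, an orphan relative that pairs with Tek and modulates its signal, read 5.30, 5.16 and 4.79 with testosterone. On the castration arrays Tie1 read 5.59, 5.41 and 5.47, and on the sham arrays 5.27, 5.73 and 5.30. The testosterone arrays thus lay below all castration arrays, and sham 2, the lowest array for 6 of the 10 genes, was the highest for Tie1.

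The junction genes come next. Cdh5 encodes VE-cadherin, the adhesion molecule of endothelial adherens junctions. Its brighter probe set stood at 6.18, 5.36 and 5.90 with testosterone, at 6.27, 6.24 and 5.97 after castration and at 5.78, 5.13 and 6.03 in sham. Testosterone 2 and sham 2 were the low arrays, and the groups overlapped. The other Cdh5 probe set had a mean of 3.23 and its arrays spread over only 0.15. Pecam1 encodes CD31, an adhesion molecule of endothelial contacts that platelets and leucocytes also carry. It had the widest range, 1.92, with 5.63, 4.31 and 5.39 on the testosterone arrays, 6.23, 5.39 and 5.54 on the castration arrays and 5.87, 5.39 and 4.78 on the sham arrays. The value on testosterone 3, castration 2 and sham 2 was identical to all deposited digits. Castration 1 was the highest array and testosterone 2 the lowest, and the groups overlapped. The leucocyte gene Ptprc (CD45) was at 5.87 on testosterone 2, where Pecam1 was lowest, and at 2.88 and 2.99 on the other testosterone arrays.

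Esam, an immunoglobulin-family adhesion molecule of endothelial tight junctions, read 6.69, 6.77 and 6.83 with testosterone, 7.12, 6.96 and 6.95 after castration and 6.88, 6.18 and 6.75 in sham. All castration arrays lay above all others, and Esam was the only one of the 10 genes with this arrangement. Of all 18193 genes 3.06% had castration arrays that did not overlap the other 6, and in 1.88% they were higher. Cldn5 encodes claudin 5, the sealing protein of endothelial tight junctions. It read 5.73, 5.66 and 5.54 with testosterone, 5.28, 5.36 and 5.14 after castration and 5.39, 5.15 and 5.35 in sham. The 3 testosterone arrays were the 3 highest, while the castration and sham arrays overlapped.

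Cav1 encodes caveolin 1, the coat protein of caveolae in endothelium, adipocytes and fibroblasts. It read 9.46, 8.94 and 9.42 with testosterone, 9.77, 9.51 and 9.60 after castration and 9.57, 9.36 and 9.51 in sham. The testosterone arrays lay below all castration arrays, with testosterone 2 far below the others. Ramp2 encodes the accessory protein that turns the calcitonin receptor-like receptor into an adrenomedullin receptor. Its own probe set read 6.30, 6.66 and 6.09 with testosterone, 6.75, 6.58 and 6.51 after castration and 6.06, 5.44 and 6.50 in sham. The castration arrays lay above the sham arrays, by as little as 0.0019 between castration 3 and sham 3. The 2 probe sets shared with Vps25 had means of 7.05 and 5.63, and which gene their signal came from cannot be told.

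**Figure D1:**
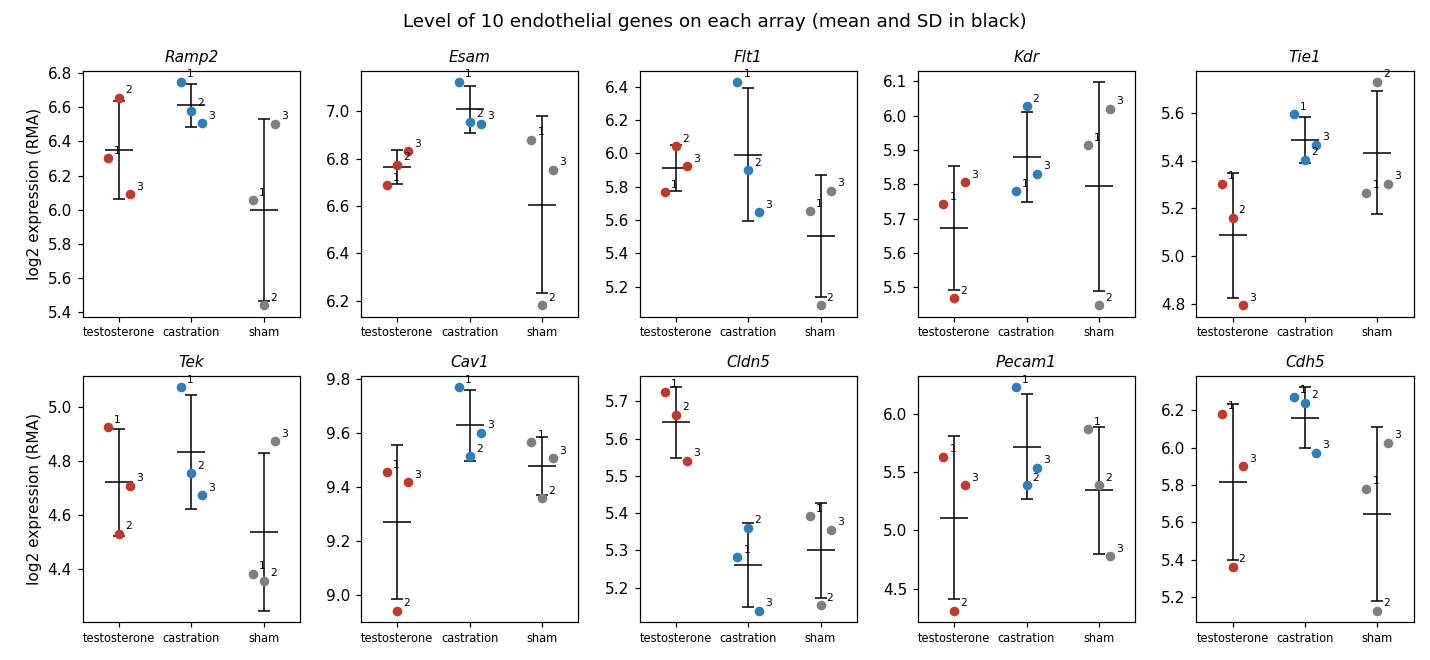
Log2 expression (vertical axis) of each of the 10 endothelial genes on the 3 testosterone, 3 castration and 3 sham arrays. Points are arrays labelled by replicate number, and black bars give the mean and SD of a group. Cldn5 is the gene whose 3 testosterone arrays lie above all others, from 5.54 to 5.73, and sham 2 is the lowest array for 6 genes.

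Castration against sham asks what loss of testicular hormones went with. Of the 10 genes 9 were higher after castration and 1, Cldn5, was lower, with a median log2 difference of 0.34. Over all 18193 genes 52.9% were higher, with a median of 0.01, and among the 7519 genes with a mean of at least 4, which include all 10 members, 74.2% were higher, with a median of 0.13. In limma, adjusted over all probe sets, 0 of the 10 genes passed, as did 0 of 45037 probe sets (0%). The smallest adjusted p among the genes was 0.883. At an unadjusted p under 0.05 there were 2 genes, Esam and Ramp2, both higher after castration, where 5.32% of all genes reached this level and 3.32% did so with a higher level. Unmoderated analysis of variance gave 0 genes at that level. Array weights gave 2, Ramp2 and Tek, while Esam had an unadjusted p of 0.0617 in that limma fit. The share of all genes at that level in these fits was not counted. With array weights 32 of 45037 probe sets passed the adjusted threshold, against 0 in the fit reported here.

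Ramp2 averaged 6.61 ± 0.13 (SD, n = 3) after castration and 5.999 ± 0.54 in sham, a log2 difference of 0.61 with a 95% interval of 0.04 to 1.19. Esam averaged 7.01 ± 0.10 after castration and 6.61 ± 0.37 in sham, a difference of 0.40 with an interval of 0.03 to 0.78. For these genes the castration arrays did not overlap the sham arrays, 2 genes of 10, where 8.89% of all genes did not overlap and 5.17% did so with castration higher. In both genes sham 2 was the lowest array. Without sham 2 and testosterone 2 the difference was 0.33 (SE 0.15) for Ramp2 and 0.19 (SE 0.09) for Esam, and neither reached an unadjusted p of 0.05 in limma.

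The VEGF receptors differed between castration and sham by 0.49 for Flt1 (interval −0.03 to 1.01) and by 0.09 for Kdr (−0.28 to 0.45). The 2 next brightest Flt1 probe sets gave 0.38 and 0.49, the dimmer of them with an interval of 0.10 to 0.88 and an adjusted p of 0.883 in limma, and the dimmest probe set gave −0.05. Cdh5 differed by 0.52 (−0.08 to 1.11) and Pecam1 by 0.37 (−0.54 to 1.28), the second of which was 0.091 without sham 3. For Tek the difference was 0.30, for Cav1 0.15, for Tie1 0.06 and for Cldn5 −0.04, with the interval of each spanning 0. The shared Ramp2 and Vps25 probe sets gave 0.17 and 0.30. From 7 arrays, without sham 2 and testosterone 2, Flt1 differed by 0.28, Cdh5 by 0.26, Tie1 by 0.20 and Cav1 by 0.092. Kdr was at −0.088 and Cldn5 at −0.11. The Flt1 probe sets at 0.38, 0.49 and −0.05 gave −0.058, 0.30 and −0.12 from these arrays, and the shared probe sets −0.15 and 0.021.

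The values moved with single arrays. Without sham 2 and testosterone 2 the 10 genes had a median difference of 0.21, with 8 higher and 2 lower after castration, and 0 at an unadjusted p under 0.05 in limma. After renewed quantile normalisation, which gives sham 2 the same distribution as the other arrays, the median was 0.19 and 7 genes were higher, while 50.8% of genes with a mean of at least 4 were higher and their median was 0.0037. Kdr turned to −0.10 and Tie1 to −0.14 in that setting. The difference of Cldn5 became −0.21, with an unadjusted p of 0.0383 in limma and an adjusted p of 0.917. Without castration 1 instead, the highest array for 7 of the 10 genes, the median was 0.16.

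Testosterone against castration asks what replacing the hormone went with. Here 1 gene, Cldn5, was higher with testosterone and 9 were lower, with a median log2 difference of −0.25. Over all genes 48.3% were higher, with a median of −0.01, and among those with a mean of at least 4, 49.2% were higher, with a median of −0.0038. In limma 0 of the 10 genes passed over all probe sets, as did 0 of 45037 probe sets (0%). At an unadjusted p under 0.05 there were 3 genes, Cldn5, Cav1 and Tie1, where 3.95% of all genes reached this level, 1.89% with a higher and 2.06% with a lower level. Unmoderated analysis of variance gave 1 gene at that level and array weights 4, and the share of all genes in these fits was not counted. With array weights 42 of 45037 probe sets passed the adjusted threshold, against 0 in the fit reported here.

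Cldn5 averaged 5.64 ± 0.09 (SD, n = 3) with testosterone and 5.26 ± 0.11 after castration. Its log2 difference was 0.38, or 1.30-fold, with a 95% interval of 0.17 to 0.60, an unadjusted p of 0.0032 and an adjusted p of 0.947 in limma. By its p it ranked 152 of 45037 probe sets. Its difference lay between 0.32 and 0.43 in every alternative fit run, with an adjusted p between 0.309 and 1, so it did not pass in any of them.

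Cav1 averaged 9.27 ± 0.29 with testosterone and 9.63 ± 0.13 after castration (SD, n = 3), a difference of −0.36 with an interval of −0.68 to −0.03. Tie1 averaged 5.09 ± 0.26 with testosterone and 5.49 ± 0.10 after castration, a difference of −0.40 with an interval of −0.77 to −0.04, which became −0.26 without testosterone 3. The testosterone arrays did not overlap the castration arrays for Cldn5, Cav1, Tie1 and Esam, 4 genes of 10, where 9.01% of all genes did not overlap. Cldn5 was the higher one, where 4.22% of all genes were, and the other 3 were lower, where 4.79% were. Without sham 2 and testosterone 2 the difference of Tie1 was −0.44 (SE 0.15), that of Esam −0.25 (SE 0.09) and that of Ramp2 −0.42 (SE 0.15). In that setting 4 genes reached an unadjusted p under 0.05 in limma, where 6.21% of all genes did, and Cav1, at −0.19 (SE 0.09), did not.

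Promoter windows are shown for Cldn5, Tie1 and Cav1, which had the lowest p of the members in testosterone against castration, because Cldn5 differed in the opposite direction to Tie1 and Cav1. Each is the 250 bases before the annotated start, 5′ to 3′ on the gene's strand, from RefSeq on build GRCm38.p6, which held windows for 6 of the 10 genes. The Cldn5 window is chr16:18776597-18776846 on the + strand, the Tie1 window chr4:118489850-118490099 on the − strand, and the Cav1 window chr6:17306085-17306334 on the + strand, the first of its 2 annotated starts. Capitals mark GGAA, the core letters of ETS factor sites, and AGAACA, the half-site letters of androgen and glucocorticoid receptors, on either strand.
Cldn5: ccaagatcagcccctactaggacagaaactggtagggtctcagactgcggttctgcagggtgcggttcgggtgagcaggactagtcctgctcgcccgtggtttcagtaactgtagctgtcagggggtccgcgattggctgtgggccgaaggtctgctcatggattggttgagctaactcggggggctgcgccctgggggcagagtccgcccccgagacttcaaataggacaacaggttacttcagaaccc
Tie1: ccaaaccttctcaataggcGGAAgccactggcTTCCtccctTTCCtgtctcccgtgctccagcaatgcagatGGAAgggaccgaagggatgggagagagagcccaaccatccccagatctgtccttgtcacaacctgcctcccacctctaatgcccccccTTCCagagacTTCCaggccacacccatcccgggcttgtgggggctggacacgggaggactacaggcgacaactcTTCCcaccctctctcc
Cav1: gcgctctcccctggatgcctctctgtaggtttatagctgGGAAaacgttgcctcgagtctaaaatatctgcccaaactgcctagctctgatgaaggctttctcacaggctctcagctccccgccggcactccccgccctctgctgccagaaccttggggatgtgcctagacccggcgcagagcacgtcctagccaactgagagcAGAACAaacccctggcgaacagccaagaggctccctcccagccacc

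The Tie1 window held 7 matches to GGAA on either strand, the Cav1 window printed 1 and the Cldn5 window 0. The window of the second Cav1 start, chr6:17307390-17307639 on the + strand, held 3. Among all 32851 RefSeq windows of this length, 93.4% held at least 1, the median was 3, and 3.82% held 7 or more. AGAACA matched once in the Cav1 window printed, and not in the Cldn5, Tie1 or second Cav1 window, where 16.1% of all windows held it. Among the other members Flt1 and Kdr had 4 matches to GGAA each and none to AGAACA, and Tek had 2 and 1. No match overlapped another in the 3 windows printed, and a match is a description of the letters only.

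For the other genes the interval of testosterone against castration spanned 0. Pecam1 had the greatest difference of the 10, −0.61, and the widest interval, −1.52 to 0.30. Cdh5 differed by −0.35 (−0.94 to 0.25), Ramp2 by −0.26 (−0.84 to 0.31) and Esam by −0.25 (−0.62 to 0.13). The differences of Kdr, Tek and Flt1 were −0.21, −0.11 and −0.08. Of the other Flt1 probe sets 1 gave 0.18, and 2 gave −0.17 and −0.10. On the 7 arrays left without sham 2 and testosterone 2, Pecam1 differed by −0.21, Cdh5 by −0.12 and Cav1 by −0.19. Kdr was at −0.105, Tek at −0.017 and Flt1 at −0.15 on these arrays, and the other Flt1 probe sets at 0.11, −0.11 and −0.025. Without castration 1 Flt1 turned to 0.14 and Tek to 0.0072.

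**Figure D2:**
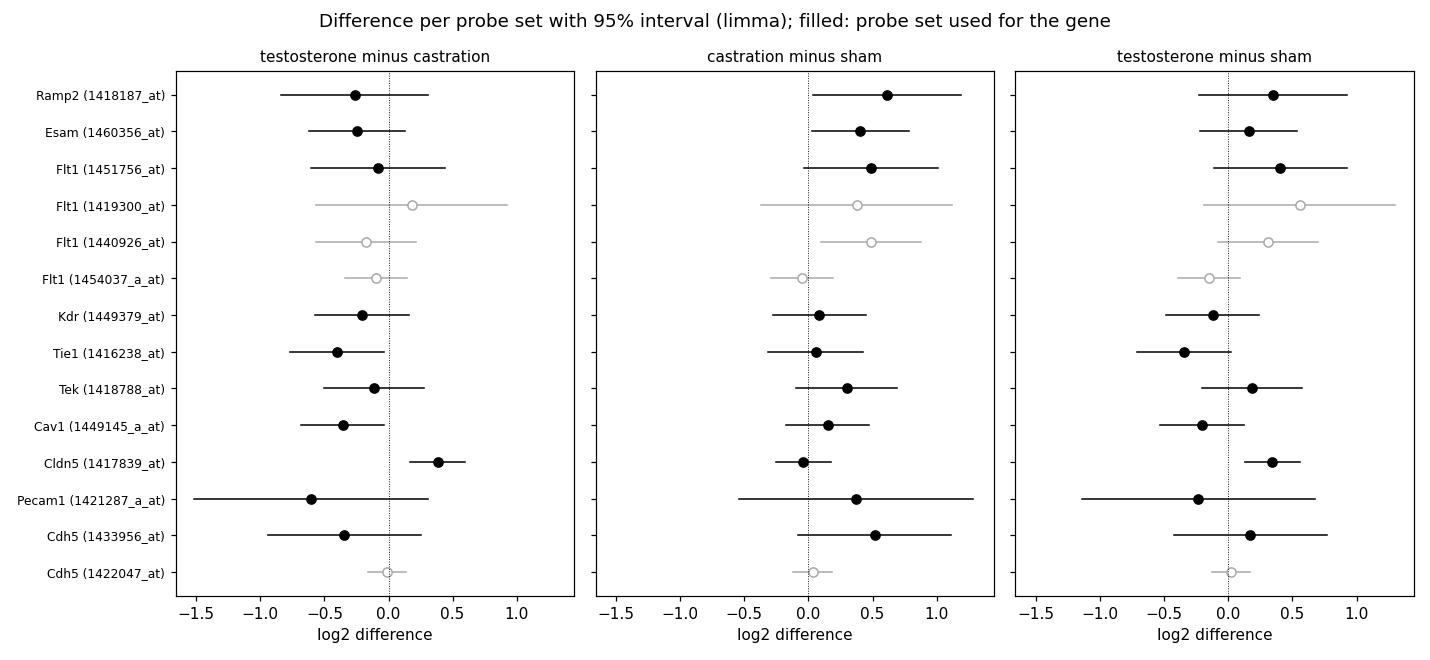
Log2 difference (horizontal axis) with its 95% interval from limma for each of the 14 probe sets listed to 1 endothelial gene alone, in testosterone minus castration, castration minus sham and testosterone minus sham. Filled points are the probe sets used for a gene and open points its other probe sets; Cldn5 is at 0.38 in the first panel, where the other 9 filled points lie below 0.

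Testosterone against sham asks how the replacement group stood relative to intact mice. Of the 10 genes 6 were higher and 4 lower with testosterone, with a median of 0.165, where 52.1% of all genes were higher and 73.1% of those with a mean of at least 4, whose median was 0.12. In limma 0 genes passed over all probe sets, as did 0 of 45037 probe sets (0%), and 1, Cldn5, had an unadjusted p under 0.05, where 5.05% of all genes did, 2.96% with a higher level. Both array weights and unmoderated analysis of variance also gave 1. Renewed quantile normalisation gave 2, Kdr at −0.30 and Cav1 at −0.29, each with an adjusted p of 0.816 in limma. Cldn5 was not among them, with an unadjusted p of 0.1085 in that limma fit. The share of all genes in these fits was not counted. In the deposited values Cldn5 was the 1 gene whose testosterone and sham arrays did not overlap. Of all genes 6.47% did not overlap, and 2.83% did so with testosterone higher.

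Cldn5 averaged 5.64 ± 0.09 with testosterone and 5.30 ± 0.13 in sham (SD, n = 3), a difference of 0.34 with an interval of 0.13 to 0.56 and an adjusted p of 0.797 in limma. It was 0.16 (SE 0.09) after renewed quantile normalisation and 0.38 after median centring, and 0.26 (SE 0.10) without sham 2 and testosterone 2. Flt1 differed by 0.41 and Ramp2 by 0.35, and Tie1 by −0.35 (−0.71 to 0.02). Tek differed by 0.18, Cdh5 by 0.17 and Esam by 0.16. Pecam1 differed by −0.23, Cav1 by −0.21 and Kdr by −0.12, and all these intervals spanned 0. The median was 0.037 without sham 2 and testosterone 2, with 5 genes on either side. In that setting Flt1 was at 0.13, Ramp2 at −0.085, Esam at −0.058, Pecam1 at 0.19, Cav1 at −0.10 and Kdr at −0.19.

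**Figure D3:**
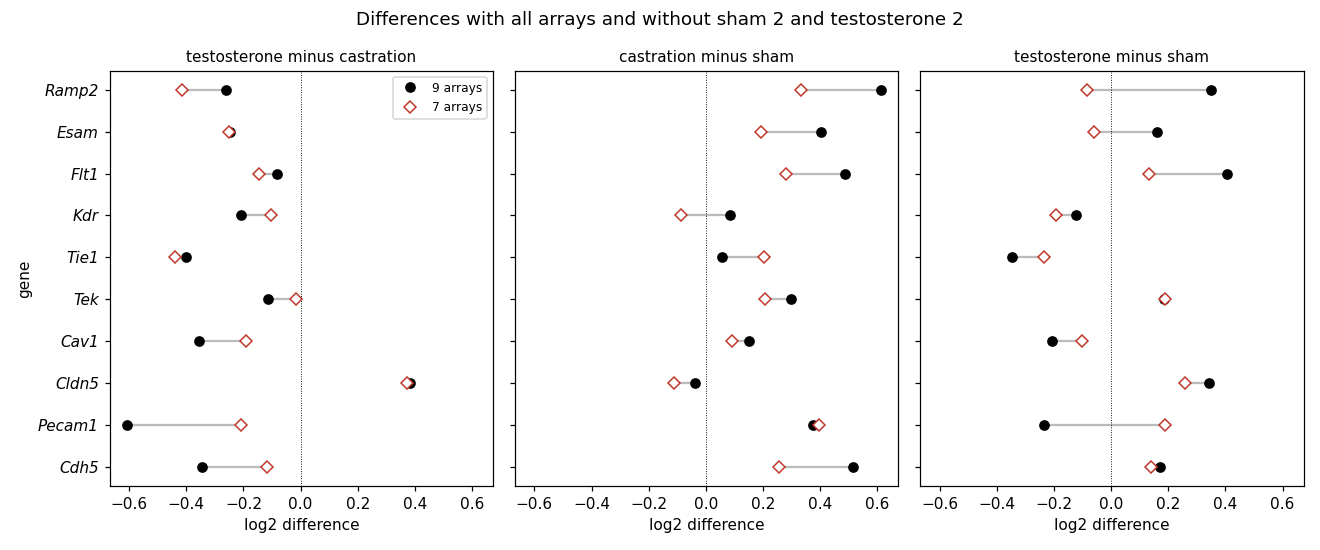
Log2 difference (horizontal axis) of each of the 10 endothelial genes with all 9 arrays (filled) and with the 7 arrays left without sham 2 and testosterone 2 (open), in 3 comparisons. In castration minus sham, Ramp2 is at 0.61 with all arrays and at 0.33 without the pair, while Cldn5 in testosterone minus castration is at 0.38 and 0.37.

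Castration was also set against the mean of both groups with androgen, a comparison that shares its arrays with those above. Of the 10 genes 9 were higher after castration and Cldn5 was lower, with a median of 0.27. Of all genes 51.7% were higher, and of those with a mean of at least 4, 65.6%. In limma 0 of the 10 passed, where 14 of 45037 probe sets (0.0311%) did, and 1, Cldn5, had an unadjusted p under 0.05, where 4.53% of all genes did, 1.7% with a lower level. Esam differed by 0.33 (−0.00096 to 0.65), Ramp2 by 0.44 (−0.06 to 0.93) and Cdh5 by 0.43 (−0.09 to 0.95), the last of which was 0.19 from 7 arrays, without sham 2 and testosterone 2. Cldn5 differed by −0.21 (−0.40 to −0.02). Without sham 2 and testosterone 2 the median was 0.20, with 9 higher, and 4 genes were under an unadjusted p of 0.05, where 6.74% of all genes were.

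The genes did not all follow each other across arrays. Over the 9 arrays, Pearson's r of a gene with the mean of the other 9 members was between 0.34 and 0.89 for 8 genes, with Cdh5 and Esam the highest, but −0.09 for Tie1 and −0.10 for Cldn5. Over the 7 arrays without sham 2 and testosterone 2 it was 0.61 for Tie1, −0.37 for Cldn5 and −0.34 for Kdr. These values are descriptions across arrays that share their normalisation and, within a group, their treatment. Among 7509 other genes with a mean of at least 4, the 10 most like the members' mean profile were Pcgf3, Il6st, Cds2, Ndufaf5, Aida, Cdadc1, Tmem70, Lrba, Anp32a and Psip1, with r between 0.954 and 0.983 over 9 arrays. Over the 7 arrays their r lay between 0.871 and 0.974. None of the 10 is in the endothelial lists used here, and 3 of them were also among the 10 most alike over the 7 arrays.

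Partner genes of the same pathways follow by role. Of 8 VEGF ligands and further receptors 4 had a mean of at least 4, and 0 passed in any comparison. Vegfa, the main ligand of Kdr, which muscle fibres make, averaged 6.42 with testosterone, 6.30 after castration and 6.21 in sham. Nrp1, a co-receptor of Kdr, averaged 7.37, 7.60 and 7.22 in the same order. Vegfa differed by 0.12 (SE 0.235) in testosterone against castration. Without sham 2 and testosterone 2 this was 0.35 (SE 0.09), with an adjusted p of 0.639 in limma. In castration against sham Vegfa was at 0.097 with all arrays and at −0.12 from the 7 arrays. Nrp1 was at 0.38 (SE 0.21) in castration against sham, and at 0.15 (SE 0.16) from the 7 arrays. In the angiopoietin list, where 3 of 6 genes had a mean of at least 4, Angpt1, the ligand of Tek, averaged 5.03 with testosterone, 5.22 after castration and 4.74 in sham. Its difference in castration against sham was 0.47 (SE 0.25), and 0.16 (SE 0.15) from the 7 arrays. Ptprb, the phosphatase that silences Tek, averaged 7.43, 7.79 and 7.53, and differed by −0.36 (SE 0.24) in testosterone against castration and by −0.11 (SE 0.10) without sham 2 and testosterone 2. Svep1, the third gene of this list at that level, differed by 0.24 (SE 0.18) in the same comparison.

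Ramp1, the relative of Ramp2 that makes a receptor for the neuropeptide CGRP, averaged 7.09 with testosterone, 7.49 after castration and 6.92 in sham, and was the 1 gene of 6 in its list with a mean of at least 4. It differed by 0.57 (SE 0.27) in castration against sham, and by 0.27 (SE 0.21) without sham 2 and testosterone 2. Among caveola genes, Cavin4, the muscle-fibre cavin, differed by 0.26 (SE 0.13) in testosterone against castration, Cavin1 by −0.21 (SE 0.11) and Cav2 by −0.32 (SE 0.23). From 7 arrays, without sham 2 and testosterone 2, Cav2 was at −0.093 and Cavin1 at −0.14. In testosterone against sham Cavin4 differed by 0.34 (SE 0.13), at an unadjusted p of 0.031 and an adjusted p of 0.797 in limma, and by 0.19 (SE 0.13) from the 7 arrays. Of 7 caveola genes 3 were higher and 4 lower with testosterone than after castration, where 48.3% of all genes were higher. Of 12 junction partners 9 were lower in that comparison and 3 higher, among them Jam2 at −0.39 (SE 0.38) and Ctnnb1, beta-catenin, at −0.27 (SE 0.19). For both, testosterone 2 was the lowest testosterone array, and from the 7 arrays Jam2 was at −0.078 and Ctnnb1 at −0.015.

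The 34 other endothelial markers come from a list that holds none of the members, and the part of other cells in their levels was not tested. After castration 29 were higher than in sham and 5 lower, with a median of 0.145, and 0 had an unadjusted p under 0.05. In that comparison 52.9% of all genes were higher. Of those with a mean of at least 4, 74.2% were higher, with a median of 0.13, close to that of the list. Cd93 differed by 0.56 (SE 0.29), Sox18 by 0.52 (SE 0.30) and Cd34 by 0.60 (SE 0.37). All 3 were lowest on sham 2, and from the 7 arrays the differences were 0.22, 0.19 and 0.14. With testosterone 26 were lower than after castration and 8 higher, with a median of −0.125, and again 0 had an unadjusted p under 0.05. There 48.3% of all genes were higher, and 49.2% of those with a mean of at least 4, whose median was −0.0038. Cd93 differed by −0.51 (SE 0.29), the capillary and vein sialomucin Emcn by −0.50 (SE 0.29) and Egfl7 by −0.19 (SE 0.12). From the 7 arrays Cd93 was at −0.30 and Emcn at −0.29. The list's median was 0.0525 in castration against sham and −0.0807 in testosterone against castration without sham 2 and testosterone 2. In these comparisons 22 and 11 of its genes were higher, where 51.5% and 48.4% of all genes were. Against sham, 24 of 34 were higher with testosterone, where 52.1% of all genes were and 73.1% of those with a mean of at least 4. Egfl7, a secreted endothelial protein, differed by −0.27 in that comparison, with an adjusted p of 0.797 in limma.

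Markers of other cells differed over the same arrays. A list's score is the mean log2 deviation of its genes from their means over all arrays. For the 10 members it was 0.09, −0.19 and −0.05 on the testosterone arrays, 0.34, 0.13 and 0.05 on the castration arrays and −0.01, −0.36 and 0.00 on the sham arrays. The score of 11 fibroblast and matrix markers was −0.04, −0.42 and −0.28 with testosterone, 0.25, 0.36 and 0.14 after castration and 0.25, −0.58 and 0.34 in sham, so it too was lowest on sham 2 and testosterone 2. In testosterone against castration 8 of these 11 were lower, and Col3a1, Sparc and Col1a1 differed by −0.57, −0.66 and −1.24, with 0 passing over all probe sets in limma and 5 of the 11 lower at an unadjusted p under 0.05, where 2.06% of all genes were. From the 7 arrays 10 of the 11 were lower and 6 had an unadjusted p under 0.05, where 6.21% of all genes did, and their median was −0.387, against −0.569 with all arrays.

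The score of 8 adipocyte markers was 0.48, 0.99 and −0.49 with testosterone, −0.55, −0.54 and −0.61 after castration and −0.29, 0.86 and 0.15 in sham. It was highest on the 2 arrays where the endothelial genes were lowest, and Adipoq, the adipocyte hormone adiponectin, reached 9.21 on testosterone 2 and 9.16 on sham 2. The labels say that fat was trimmed from the muscles. Over the 3 arrays of a group the summed linear level of these markers ran, in log2, from 10.66 to 11.72 with testosterone, from 10.70 to 10.97 after castration and from 10.89 to 11.72 in sham. This sum follows mainly 1 gene, Fabp4, and whether it measures fat was not tested. Fabp4 alone read 10.87 on castration 1, where the sum was 10.97, and 11.29 on testosterone 2, where the sum was 11.72. On the castration arrays Fabp4 read 10.87, 10.74 and 10.58, while Adipoq read 5.54, 5.58 and 5.29. The score of 12 macrophage and leucocyte markers was 0.63 on testosterone 2 and between −0.20 and 0.09 on the other arrays. That of 12 pericyte and smooth muscle markers was −0.28 on sham 2 and between −0.11 and 0.14 elsewhere. The part of these cells in the endothelial differences was not tested.

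**Figure D4:**
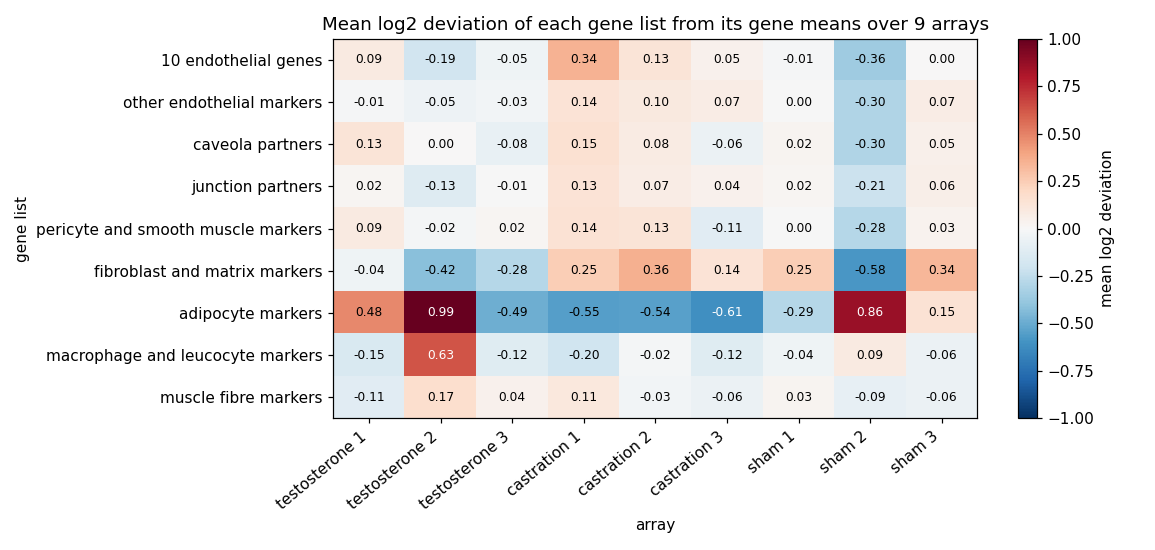
Mean log2 deviation of each gene list (rows) from its genes' means over the 9 arrays (columns, testosterone, castration and sham), printed in each cell and coloured from −1 to 1. The 10 endothelial genes run from −0.36 on sham 2 to 0.34 on castration 1, while the adipocyte markers are highest, at 0.99 and 0.86, on testosterone 2 and sham 2.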

How the data were processed

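RNA of the gastrocnemius was measured on 9 Affymetrix arrays, and per the labels' protocols each held equal amounts of 4 µg RNA from each of 3 animals. The deposited values are log2 expression per probe set, for which the submitters' processing notes name RMA, whose version and background model are not given in the sources used here. They were used as deposited. Arrays have no read depth, and 3 per group limits the precision.

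Of 45101 probe sets 64 controls were left out. The platform annotation lists 34945 to 1 gene, 932 to several and leaves 9160 unlisted; symbols were updated through the reference gene table, where 204 found no match. Groups and replicate numbers came from the sample titles. All 45037 probe sets were fitted with limma 3.58.1 in R 4.3.3 (lmFit, eBayes) with 1 coefficient a group. Tests were two-sided, with Benjamini-Hochberg adjustment over all probe sets and a threshold of 0.05. One-way analysis of variance without moderation was run as an alternative. Per the sample titles the arrays are biological replicates. The members, the gene lists, the tests and the setting without sham 2 and testosterone 2 were chosen with earlier results of these data known. All members were named. From every other list the genes that passed were picked, or else up to 3 with the smallest p and a mean of at least 4. Not all genes so picked are described above, among them Cspg4 and Rgs5 of the pericyte and smooth muscle list. In the platelet and red cell list, which held 7 genes, 0 passed in any comparison. No duplicate arrays were found: any pair shared at most 5.78% of identical values. Ckm, Ptprc and Fabp4 were named after their values were seen. Scripts were tested on simulated data. Promoter windows were read from RefSeq sequences of GRCm38.p6.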

Additional observations from a re-analysis of the deposited data

How the results depend on the processing

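In 22 alternative settings (21 for castration against the mean of both other groups), 0 of the 10 endothelial genes passed over all features tested in any comparison, as with all arrays, and the smallest adjusted p of limma was 0.309. The samples share only a replicate number: same-numbered arrays had correlations of their deviations between −0.47 and 0.31. Each array was also matched with the 3 arrays of another group, and 10 of 18 such matches were best with its own number. These matches are not independent, because the deviations within a group are taken from that group's own mean. With the replicate number as a block 0 of the 10 genes passed in every comparison, and the 14 probe sets called in castration against the mean of both other groups became 0. Without sham 2 and testosterone 2 the probe sets called numbered 15 in castration minus sham, 20 in testosterone minus castration and 46 in castration minus the mean of both other groups, with array weights 32, 42 and 90, and after renewed quantile normalisation 1, 16 and 20, against 0, 0 and 14 in the fit reported. The median of the 10 genes lay between 0.16 (without castration 1) and 0.41 in castration minus sham, between −0.30 and −0.17 in testosterone minus castration, between −0.071 and 0.29 in testosterone minus sham, and between 0.19 and 0.32 in castration minus the mean of both other groups. For testosterone minus sham, renewed quantile normalisation gave −0.025 and leaving out sham 2 gave −0.071. Of 862 single-gene differences refitted, 840 kept their sign and 22 turned. In castration minus sham Kdr was −0.10 after renewed quantile normalisation, −0.049 with array weights and −0.088 without sham 2, with or without testosterone 2. Tie1 was −0.14 after quantile normalisation and ran from −0.029 to 0.20 leaving out 1 array, and Cldn5 from −0.11 to 0.022. In testosterone minus castration Flt1 ran from −0.25 to 0.14 and Tek from −0.22 to 0.0072. In testosterone minus sham Esam was −0.038 after quantile normalisation, −0.045 with array weights and −0.058 without sham 2 and testosterone 2, and Cdh5 was −0.011 after quantile normalisation. Without both arrays Ramp2 was −0.085 and Pecam1 0.19. Leaving out 1 array, Esam ran from −0.054 to 0.30, Cdh5 from −0.088 to 0.40, Ramp2 from 0.069 to 0.60 and Pecam1 from −0.52 to 0.17. The cause was not tested. Without probe sets of the suffixes s, x or a, Cav1 and Pecam1 have none left and were not refitted. Detection calls were not used here, so whether dim probe sets exceed background is unknown.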
